A study of Homo sapiens with 4 samples.

Results

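The transcripts of 9 chaperone genes were examined in iiCLIP data of PR100-FLAG, a FLAG-tagged chain of 100 proline-arginine repeats of the kind translated from the C9orf72 repeat expansion. The genes were taken by name as members of the HSP90 and HSP70 systems: HSP90AA1, HSP90AB1 and HSP90B1 (HSP90), HSPA8, HSPA5 and HSPA9 (HSP70), HSPA4 and HSPH1 (HSP110) and HSPD1 (HSP60). They are 9 of 62700 annotated genes and 9 of 20046 protein-coding genes. All 4 libraries came from HEK293T cells, a human embryonic kidney line, that were transiently transfected with the PR100-FLAG plasmid, given 150 ng/ml doxycycline for 24 h and irradiated with 160 mJ/cm2 UV. Complexes were purified by SDS-PAGE in replicates 1 to 3 and with beads in replicate 4, so purification and library cannot be told apart there. The control libraries were not analysed here, and nothing in the labels says that the 4 libraries came from separate cultures, so the spread between them may be technical.

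iiCLIP places each unique cDNA at the nucleotide before its read, and each such cDNA is called a crosslinking event. The libraries held 125694 to 604816 events and 1244203 in all. CPM values are events per 1000000 events of the library. Expression was not measured, so a count reflects the amount of the transcript as well as its contact with PR100. Replicate 3, the smallest library and the only one with a random barcode of 5 instead of 7 nt, stood apart in how its events were spread. Its 188 exonic events in the 9 genes lay on 47 positions (4 events per position), against 251, 640 and 594 positions in replicates 1, 2 and 4 (1.61, 1.93 and 1.42 events per position). The segment and motif results are therefore also given without it.

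Chaperones bind unfolded or partly folded proteins and use ATP to help them fold. HSP70 proteins hold short hydrophobic stretches of a client in a substrate-binding domain that is controlled by a nucleotide-binding domain, HSP110 proteins act as their nucleotide exchange factors, and HSP60 encloses clients in a barrel in mitochondria. HSP90 proteins are dimers that take over clients at a later stage, and a highly charged, flexible linker joins their N-terminal ATPase domain to the middle domain.

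The charged linkers of the 3 HSP90 proteins are described first, because the densest exon of each HSP90 gene encodes most of its linker. Each linker was taken from the translated canonical transcript as the longest union of windows of 20 residues with at least 14 aspartate, glutamate, lysine or arginine residues, outside the last 50 residues. The linker of HSP90AA1 covers residues 220 to 292 (chr14:102084786-102085303, minus strand, GRCh38, exons 4 and 5), that of HSP90AB1 residues 215 to 282 (chr6:44250149-44250488, plus strand, exons 5 and 6) and that of HSP90B1 residues 289 to 332 (chr12:103938349-103939529, plus strand, exons 7 and 8). The linker sequences of HSP90AA1 and HSP90B1 are given as the spliced coding RNA, 5′ to 3′, and capitals mark GANGA pentamers with any base but U as N, the motif class that the study examined around PR100 sites.
HSP90AA1 linker: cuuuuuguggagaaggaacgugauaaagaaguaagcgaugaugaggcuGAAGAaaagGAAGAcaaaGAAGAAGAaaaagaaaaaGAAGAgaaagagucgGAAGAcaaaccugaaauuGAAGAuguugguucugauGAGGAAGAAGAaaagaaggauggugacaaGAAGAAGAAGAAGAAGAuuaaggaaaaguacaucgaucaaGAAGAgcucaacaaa
HSP90B1 linker: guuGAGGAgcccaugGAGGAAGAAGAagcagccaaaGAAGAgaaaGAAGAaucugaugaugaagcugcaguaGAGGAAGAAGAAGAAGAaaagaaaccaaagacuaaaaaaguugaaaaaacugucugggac
The linker RNAs held 16, 13 and 11 GANGA pentamers in 219, 204 and 132 nt. Glutamate codons numbered 24 of 73 in HSP90AA1, 20 of 68 in HSP90AB1 and 18 of 44 in HSP90B1, and lysine codons 19, 16 and 8. Purines made up 78.1%, 77.5% and 77.3% of the linker bases and 56.2%, 53.8% and 57.6% of the transcripts. HSP90AA1 and HSP90AB1 shared 86.7% of 724 aligned residues but 69.1% of 68 aligned linker residues, and HSP90B1, the form of the endoplasmic reticulum, shared 50.1% of the protein and 40.9% of the linker with HSP90AA1.

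The 9 genes held 3302 events, 0.265% of all events. The share was 0.161%, 0.243% and 0.198% in replicates 1 to 3 and 0.581% in replicate 4. The 3 HSP90 genes held 66.5% of these events (61.0%, 65.6%, 59.8% and 72.1% in replicates 1 to 4). At 200 or more pooled events stood 4 of the 9 genes (HSP90AA1, HSP90AB1, HSP90B1 and HSPA8), against 3.51% of protein-coding genes. The study used this minimum for a highly bound gene together with a limit on binding in the controls, which was not applied here. A gene is counted over its whole span, and without events inside other annotated genes on the same strand 3 of 9 remained, HSPA8 having dropped out. A significant cluster of the pooled libraries, as deposited by the authors, lay in 8 of the 9 genes, all but HSPH1, against 11.3% of protein-coding genes. These 2 background shares cover all protein-coding genes, including those that the cells may not express.

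HSP90AA1, the stress-inducible cytosolic HSP90, had the most events of the 9 genes in each of the 4 libraries. It held 170, 454, 62 and 387 events in replicates 1 to 4, which is 509, 751, 493 and 2154 CPM (mean 977 ± 794, SD, n = 4). By pooled events it ranked 7 among 20046 protein-coding genes, with ranks of 38, 8, 31 and 3 in the single libraries. Replicate 4 was 2.87-fold above the highest of the other 3.

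HSP90AB1, the constitutive cytosolic HSP90, had 225, 455, 318 and 1030 CPM (507 ± 361, SD, n = 4). HSP90B1 had 249, 392, 374 and 1002 CPM (504 ± 338). The values of these 2 genes overlapped with each other, and replicate 4 again lay above replicates 1 to 3 in both. HSPA8, the constitutive cytosolic HSP70, had 254, 261, 422 and 857 CPM (449 ± 283), most of it outside its exons as described later.

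The other 5 genes were lower. HSPA9, the mitochondrial HSP70, had 92.8, 169, 31.8 and 251 CPM. HSPA4 had 80.8, 152, 79.6 and 195 CPM, and HSPA5, the HSP70 of the endoplasmic reticulum, 98.8, 106, 143 and 111 CPM. The 4 values of HSPA5 lay closest together (115 ± 19.6, SD, n = 4). HSPD1 had 59.9, 101, 7.96 and 139 CPM, the value of replicate 3 being 1 event, and HSPH1 had 41.9, 47.9, 111 and 66.8 CPM. In the order of mean CPM (HSP90AA1, HSP90AB1, HSP90B1, HSPA8, HSPA9, HSPA4, HSPA5, HSPD1, HSPH1), neighbours overlapped in their ranges at each step but 1, that from HSPA8 (lowest library 254) to HSPA9 (highest library 251).

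**Figure D1:**
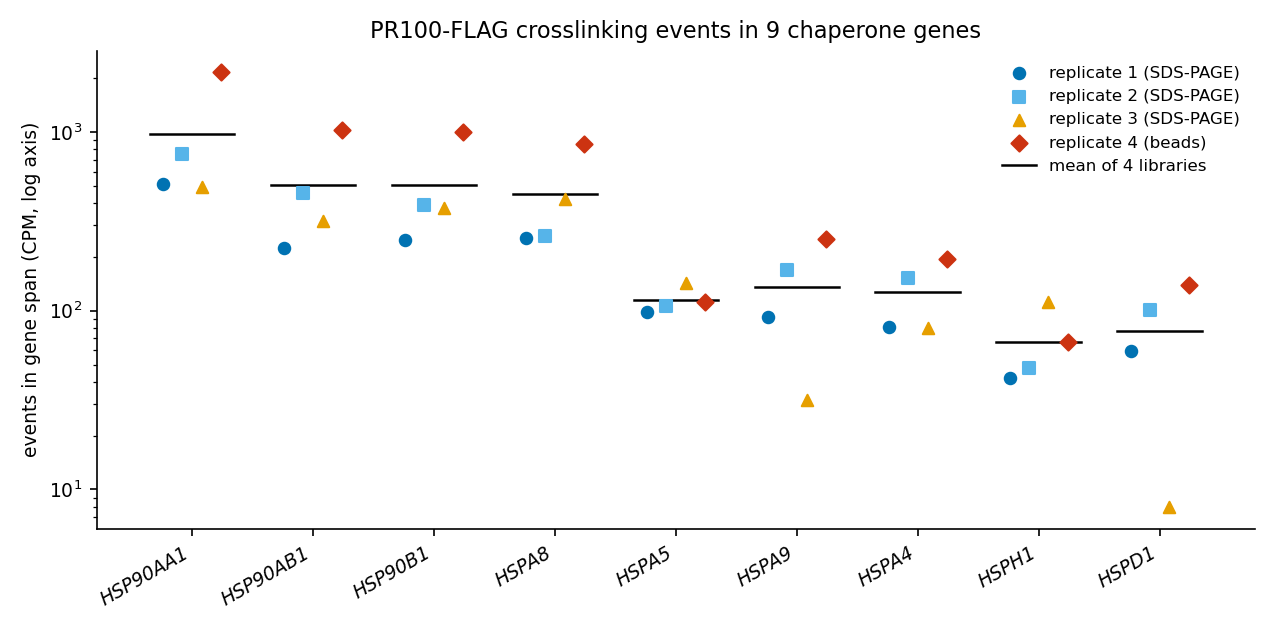
Crosslinking events in the span of each gene in CPM (log axis), 1 point per library and a bar at the mean of 4. Replicate 4 is highest for 7 of 9 genes, and HSP90AA1 reaches 2154 CPM there.

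The CPM was highest in replicate 4 for 7 of the 9 genes, all but HSPA5 and HSPH1. This was also so for 67.5% of the 590 protein-coding genes with 100 or more exonic events. On the log2 scale, the CPM of replicate 4 lay 1.88 above the mean of replicates 1 to 3 for HSP90AA1, 1.63 for HSP90AB1, 1.57 for HSP90B1, 1.46 for HSPA8, 1.36 for HSPA9, 0.90 for HSPA4, 1.31 for HSPD1, -0.01 for HSPH1 and -0.06 for HSPA5. The median was 1.45 for the 7 of these genes with 100 or more exonic events, of which 6 were highest in replicate 4, and 0.61 for all 590 genes. Mitochondrial events made up 1.82%, 5.94%, 1.30% and 6.52% of replicates 1 to 4. The part of the purification in this was not tested.

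Per length of spliced transcript, the 3 HSP90 genes stood above the other 6 in each of the 4 libraries. HSP90AA1 had 140, 222, 143 and 624 CPM per kb of exon in replicates 1 to 4, HSP90AB1 77.3, 170, 125 and 384, and HSP90B1 80.7, 128, 134 and 332. HSPA8 had 30.4, 42.4, 24.6 and 76.2 CPM per kb of exon, and HSPA5 25.2, 27, 36.5 and 28.4. HSPA9, HSPA4, HSPH1 and HSPD1 had means of 19.4, 20.2, 8.61 and 25 CPM per kb of exon. In pooled events per kb of exon, HSP90AA1, HSP90AB1 and HSP90B1 had 311, 213 and 181, and the median of the 590 genes was 26.2.

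Most events of these genes lay in exons, and there in coding sequence, with HSPA8 as the exception. Summed over the 9 genes, 78.8% ± 4.14 (SD, n = 4) of events were in exons of the canonical transcript. By gene, the pooled exonic share was 93.6% for HSP90AA1, 94.6% for HSP90AB1, 92.1% for HSP90B1, 100% for HSPA5 (135 of 135 events) and 62.6% to 75.6% for HSPA9, HSPA4, HSPH1 and HSPD1. Exons were denser than introns in 4 of 4 libraries in 8 of 9 genes, with HSPD1 resting in replicate 3 on the pseudocount of 0.5 event alone. Among the 7 members with 100 or more exonic events the count was 6, against 93.4% of 573 genes with this minimum. The summed log2 ratio of exon to intron density was 4.03 ± 0.32.

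**Figure D2:**
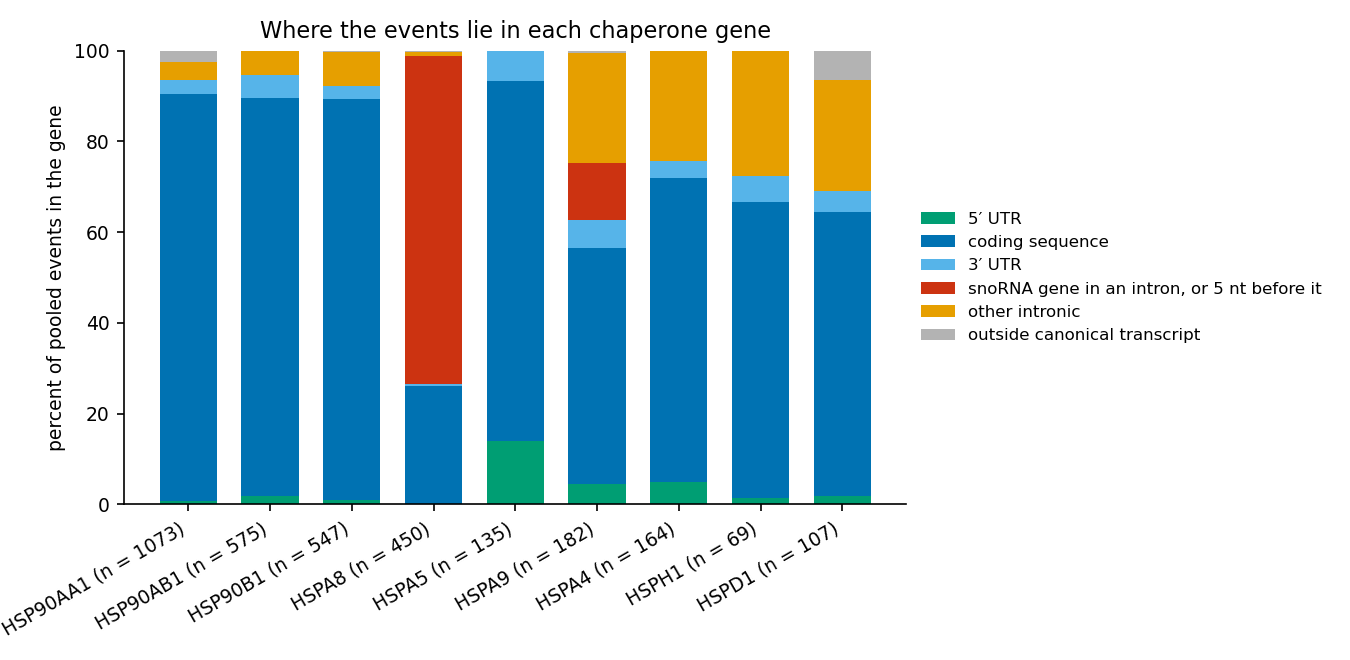
Share of the pooled events of each gene (percent, n in the axis labels) by region. HSPA8 is the only 1 of 9 in which most events (72.4%) lie in a snoRNA gene or up to 5 nt before it; coding sequence leads in the other 8.

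Coding sequence was denser than the 3′ UTR in 4 of 4 libraries in 7 of 9 genes (all but HSP90AB1 and HSPD1). Among the 7 members with 100 or more exonic events the count was 6, against 53.9% of 579 genes with this minimum. HSPA9 rested in replicate 3 on the pseudocount alone. Ratios with 0 events in the 3′ UTR also depended on the pseudocount, as in HSPA8 (0, 2, 0 and 0 events). The summed log2 ratio of coding to 3′ UTR density was 3.47 ± 0.71 (SD, n = 4). HSP90AA1 had 438 pooled events per kb of coding sequence and 34.0 per kb of 3′ UTR. HSP90AB1 had 232 and 102, and its log2 ratio was 0.50, 1.15, -0.41 and 2.01 in replicates 1 to 4. HSPA5 was the gene with the largest share in the 5′ UTR, with 19 of its 135 events (14.1%), 10, 8, 0 and 1 in replicates 1 to 4. The authors' pooled clusters in the 9 genes numbered 45 and held 2224 cDNAs. Of these, 42 touched exons and 3 lay in introns, all 3 in snoRNA genes.

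Within the HSP90AA1 transcript, exon 5 held 531 of 1004 exonic events, or 1670 per kb, and was the densest exon. The largest cluster of the 9 genes lay there, with 535 cDNAs over 194 nt (chr14:102084808-102085001). The linker as a whole had 70 of 140 coding events in replicate 1, 245 of 417 in replicate 2, 4 of 52 in replicate 3 and 220 of 354 in replicate 4, while it makes up 9.96% of the coding length. As shares these are 50% (95% Wilson interval 41.8 to 58.2), 58.8% (54.0 to 63.4), 7.69% (3.03 to 18.2) and 62.1% (57 to 67), where the intervals cover counting error only. In these shares, replicates 1, 2 and 4 were alike and replicate 3 was not. The log2 ratio of linker density to the density of the other coding sequence was 3.18, 3.69, -0.25 and 3.89 (mean 2.63 ± 1.94, SD, n = 4). An exact permutation of signs over the 4 libraries (sign-flip test, two-sided) gave p = 0.25. Its smallest possible p is 0.125, so no value of this design can pass 0.05. The segments tested were chosen with earlier results of these data known, so these p values are descriptive only. Without replicate 3 the mean was 3.58. With each position counted once per library it was 2.34 ± 0.91 (SD, n = 4; exact sign-flip permutation test p = 0.125). Against coding positions of the same exons alone it was 2.69 ± 0.73 (SD, n = 4; exact sign-flip permutation test p = 0.125). This p requires the same sign in all 4 libraries, so replicate 3 was above 0 in both settings. In replicate 3, 47 of 52 coding events lay after the linker. Of its 58 exonic events, 28 lay in exon 11, the last exon, and 16 in exon 7.

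HSP90AB1 had most of its coding events in the linker in all 4 libraries. Its exon 6 held 295 of 544 exonic events (955 per kb), and the cluster there held 280 cDNAs over 137 nt (chr6:44250287-44250423). The linker had 32 of 59, 136 of 245, 22 of 31 and 88 of 169 coding events in replicates 1 to 4. These shares were 54.2%, 55.5%, 71% and 52.1%, against 9.38% of the coding length. The log2 ratio of linker to other coding density was 3.51, 3.59, 4.52 and 3.39 (3.75 ± 0.52, SD, n = 4; exact sign-flip permutation test p = 0.125, the smallest it can give). Without replicate 3 the mean was 3.50. The ratio fell to 2.97 when the linker was set against coding positions of the same exons alone, and to 2.74 with at least 16 charged residues per window.

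HSP90B1 had 2 dense places. The linker had 13 of 70, 33 of 204, 9 of 47 and 34 of 163 coding events, or 18.6%, 16.2%, 19.1% and 20.9%, against 5.47% of the coding length. The log2 ratio was 2.02, 1.75, 2.09 and 2.20 (2.02 ± 0.19, SD, n = 4; exact sign-flip permutation test p = 0.125). Without replicate 3 the mean was 1.99. With at least 16 charged residues per window it was 1.14 ± 1.71 (SD, n = 4; exact sign-flip permutation test p = 0.25). The densest exon was exon 7 (97 events, 808 per kb), which holds most of the linker. Next came exon 17 (82 events, 683 per kb; 6, 42, 2 and 32 in replicates 1 to 4), near the acidic C-terminal end. A second charged segment there, residues 772 to 791 with 14 acidic and 0 basic residues, had 833 events per kb. This was above the 674 per kb of the linker itself.

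Charged segments also occurred a second time in the cytosolic forms. Residues 545 to 573 of HSP90AA1 had 4, 34, 0 and 16 events (621 per kb), and residues 538 to 561 of HSP90AB1 had 2, 16, 0 and 9 events (375 per kb). Summed over the 3 genes, charged coding segments were denser than the rest by 2.76 ± 0.79 on the log2 scale (SD, n = 4), and by 3.14 ± 0.32 (n = 3) without replicate 3. Taken one by one, 2 of the 3 genes had denser charged segments in 4 of 4 libraries, against 43.0% of the 207 genes with such a segment and 100 or more coding events. The median log2 ratio was 2.32 for the 3 genes and 1.09 for the 207. No charged segment of this definition occurred in the other 6 proteins.

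**Figure D3:**
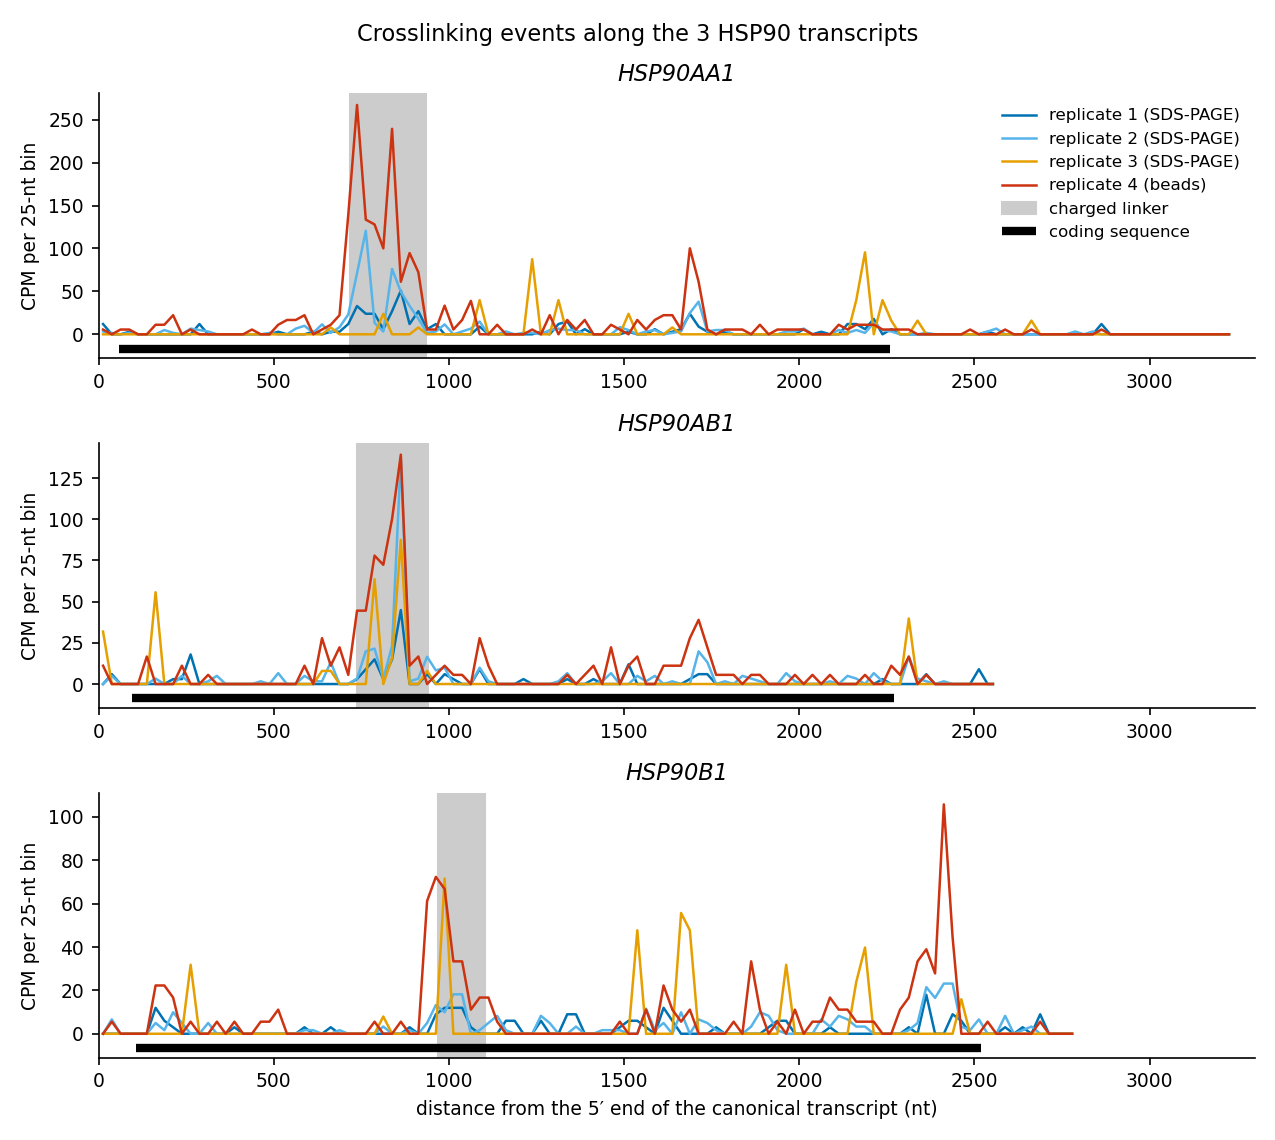
Events per 25-nt bin in CPM along the 3 HSP90 transcripts, 1 line per library, with the charged linker shaded and the coding sequence as a black bar. In HSP90AB1 all 4 libraries peak in the linker; in HSP90AA1 replicates 1, 2 and 4 do, with 4 of 52 coding events of replicate 3 there.

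The libraries agreed to different degrees along the transcripts. In bins of 50 nt, Pearson's r between 2 libraries was 0.97 for replicates 2 and 4 of HSP90AA1 (64 bins), 0.82 and 0.84 for replicate 1 with these, and -0.04 to 0.17 for replicate 3 with the others. For HSP90AB1 it was 0.66 to 0.86 (51 bins) and for HSP90B1 0.15 to 0.77 (55 bins). Bins of 1 transcript share its base composition and are not replicates. None of the 1299 exonic positions with an event had events in all 4 libraries, and 191 had them in 2 or more.

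Inside the linkers the events were not spread evenly. Cut into 3 equal lengths from the 5′ end, the HSP90AA1 linker had 269, 153 and 117 events, the HSP90AB1 linker 73, 180 and 25, and the HSP90B1 linker 46, 37 and 6. In these pooled counts the last stretch was the lowest in each of the 3 genes. In the HSP90AA1 linker this did not hold in replicate 1 (29, 17 and 24 events) or replicate 3 (0, 3 and 1). The following windows show positions with many cDNAs in HSP90AA1 and HSP90B1, 5′ to 3′, with the crosslinked base as base 6 of 30 and GANGA in capitals.
HSP90AA1 chr14:102084965, codon 233: gcgaugaugaggcuGAAGAaaagGAAGAca
HSP90AA1 chr14:102084872, codon 264: guucugauGAGGAAGAAGAaaagaaggaug
HSP90AA1 chr14:102085301, codon 220: acucuuuuuguggagaaggaacgugauaaa
HSP90B1 chr12:103947367, codon 773: GAAGAcacagagcaaGACGAAGAuGAAGAa
HSP90B1 chr12:103938377, codon 298: agaagcagccaaaGAAGAgaaaGAAGAauc
The first HSP90AA1 position held 53 cDNAs (2, 40, 0 and 11 in replicates 1 to 4), the second 30 (2, 17, 0 and 11) and the third 20 (0, 4, 0 and 16). The C-terminal HSP90B1 position held 16 (0, 10, 0 and 6) and the linker position 10 (0, 0, 9 and 1). Of these 5 windows, 4 held GANGA and 1, at the uridine-rich start of the HSP90AA1 linker, did not. A GANGA start from 5 nt upstream to 30 nt downstream existed for 89.0% of all HSP90AA1 linker positions and 68.2% of HSP90B1 ones. It existed for 100% of positions in residues 772 to 791 of HSP90B1. Of the positions with the most cDNAs in the HSP70, HSP110 and HSP60 genes, those of HSPA8, HSPA9 and HSPA4 had such a start. Those of HSPA5, HSPH1 and HSPD1 did not. These positions held few cDNAs, almost all from 1 library each. HSPA8 had 7 of 8, HSPA5 9 of 9 and HSPH1 4 of 4 in replicate 3. HSPA9, HSPA4 and HSPD1 each had 5 of 5 in replicate 2.

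Events of the 9 genes lay more densely near GANGA. A position was called near when a GANGA pentamer on the transcript strand started from 5 nt upstream to 30 nt downstream of it. The study found GAAGA enriched in its PR100 iiCLIP data with this same range. Motif and range are therefore not independent of the events counted here, and the ratios only describe these genes. Summed over the 9 genes, exonic positions near GANGA were denser than the others by 2.35 ± 0.31 on the log2 scale (SD, n = 4), and by 2.49 ± 0.14 (n = 3) without replicate 3. HSP90AA1 had 69.4% of its exonic events and 30.7% of its exonic positions near GANGA, HSP90AB1 67.6% and 32%, HSP90B1 60.7% and 34.4%, HSPA5 49.6% and 19.1%, HSPA4 43.5% and 19.8%, HSPA8 37.8% and 19.4%, HSPD1 31.1% and 21.2%, HSPH1 26% and 16.2%, and HSPA9 20.2% and 11%. The share of exonic positions near GANGA had a median of 18.2% over the 590 genes.

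The log2 ratio was above 0 in 4 of 4 libraries in 7 of the 9 genes, against 33.5% of 588 genes with 100 or more exonic events. Among the 7 genes that meet this minimum the count was 6, and the median of the mean ratio was 2.15, against 0.58 over the 588. For HSP90AA1 the ratio was 2.79, 2.64, 1.08 and 2.10 in replicates 1 to 4, for HSP90AB1 1.70, 2.19, 1.51 and 2.41, and for HSP90B1 1.12, 1.55, 0.63 and 2.06. For HSPA5 it was 2, 1.64, 2.08 and 3.58. HSPA9 and HSPH1 were below 0 in replicate 3 (-0.15 and -1.53), where they had 4 and 7 exonic events. HSPD1 had 0 exonic events in replicate 3, so its value there came from the pseudocount alone.

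**Figure D4:**
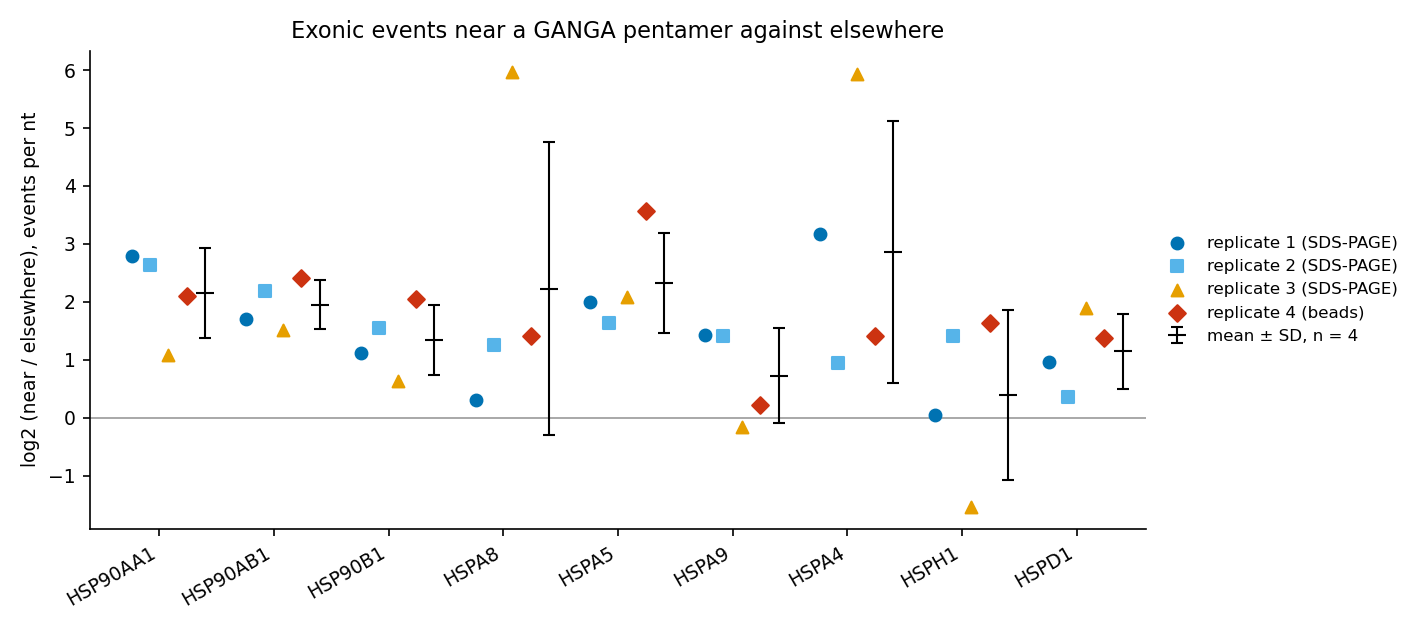
Log2 ratio of event density near GANGA to that elsewhere in exons, 1 point per library, with mean ± SD (n = 4). The HSP90 values lie between 0.63 and 2.79; the values of HSPA8 and HSPA4 in replicate 3, near 6, rest on 7 events each.

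The linkers carried part of this difference. Positions near GANGA made up 89.0% of the HSP90AA1 linker, 89.7% of the HSP90AB1 linker and 68.2% of the HSP90B1 linker. Without the linkers the summed log2 ratio was 1.59, and without the 3 HSP90 genes 1.72, 2 settings chosen after seeing the data. The linker was in turn denser than other coding positions near GANGA. This log2 ratio was 2.22, 3.08, -0.77 and 3.69 in replicates 1 to 4 for HSP90AA1, 3.36, 3.14, 4.75 and 2.57 for HSP90AB1, and 1.63, 1.09, 2.26 and 1.35 for HSP90B1. Coding positions near GANGA outside the linker against the remaining coding positions gave 1.98, 1.07, 0.87 and 0.31 for HSP90AA1, 0.19, 0.70, -0.43 and 1.40 for HSP90AB1, and 0.65, 1.26, -0.28 and 1.74 for HSP90B1. Pooled, the HSP90AA1 linker had 2461 events per kb, the other coding positions near GANGA 311 and the rest 161. For HSP90AB1 these densities were 1363, 165 and 91.9, and for HSP90B1 674, 268 and 119. Inside the HSP90AA1 linker, the 195 nt near GANGA had 2451 events per kb and the 24 nt elsewhere 2542. The same 2 densities were 1459 and 524 in the HSP90AB1 linker, and 922 and 143 in that of HSP90B1.

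In HSPA8, most events lay in, or just before, snoRNA genes within its introns. Of 450 events, 119 were exonic (26.4%) and 330 intronic, and 326 of the intronic ones lay in, or up to 5 nt upstream of, the 3 box C/D snoRNA genes SNORD14E, SNORD14D and SNORD14C. SNORD14 snoRNAs act in the maturation of 18S ribosomal RNA. The other 2109 nt of intron held 4 events. The sequences of the 2 snoRNAs with the most events are given 5′ to 3′, with the position of the most cDNAs in capitals.
SNORD14E, chr11:123058077-123058161, minus strand: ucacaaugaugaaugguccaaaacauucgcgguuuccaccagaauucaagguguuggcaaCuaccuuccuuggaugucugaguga
SNORD14C, chr11:123059335-123059422, minus strand: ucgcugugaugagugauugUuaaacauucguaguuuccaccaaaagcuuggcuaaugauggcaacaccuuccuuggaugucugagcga
SNORD14E held 183 events, 40, 59, 25 and 59 in replicates 1 to 4, on 39 positions with at most 21 on 1 of them (base 61). SNORD14C held 72 (16, 31, 0 and 25) and SNORD14D 14 (4, 2, 0 and 8). A further 31 events lay on the single nucleotide before SNORD14E and 15 on that before SNORD14C, which is where a cDNA that runs to the 5′ end of the snoRNA is placed. Events of the snoRNA and of the HSPA8 intron cannot be told apart by position. The clusters at SNORD14E and SNORD14C held 222 and 87 cDNAs. No GANGA pentamer occurs in either sequence. SNORD63, in an intron of HSPA9, held 21 events (1, 8, 0 and 12).

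In the exons of HSPA8, exon 8 had the most events and the highest density (37 events, 159 per kb; 5, 13, 7 and 12 in replicates 1 to 4). It lies in the substrate-binding part. The HSP70 proteins were parted at the conserved linker between their nucleotide-binding domain (NBD) and substrate-binding domain (SBD). HSPA8 had 8, 30, 0 and 11 events in the NBD and 15, 26, 7 and 20 in the SBD. The log2 ratio of NBD to SBD density was -1.50, -0.43, -4.54 and -1.47 (mean -1.99 ± 1.78, SD, n = 4; exact sign-flip permutation test p = 0.125). Without replicate 3, whose 7 exonic events lay on 1 position, the mean was -1.14.

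HSPA5 had 15, 25, 9 and 9 events in the NBD and 8, 23, 9 and 9 in the SBD. Its log2 ratio was 0.06, -0.69, -0.81 and -0.81 (-0.56 ± 0.42, SD, n = 4; exact sign-flip permutation test p = 0.25), with a mean of -0.48 without replicate 3. The 31 nt downstream of a position occurred once in the genome for 77.9% of NBD and 42.1% of SBD positions. At such positions alone the mean was -0.60 ± 1.60 (SD, n = 4; exact sign-flip permutation test p = 0.375). The HSPA5 exon with the most events was the last, exon 8 (50 events, 21.7 per kb), and its densest exon 5 (35 events, 89.5 per kb; 9, 15, 9 and 2 in replicates 1 to 4). The 9 events of replicate 3 in exon 5 were on 1 position.

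HSPA9 had 3, 34, 0 and 11 events in the NBD and 12, 19, 0 and 14 in the SBD. The log2 ratio was -2.69, -0.03, -0.86 and -1.19 (-1.19 ± 1.11, SD, n = 4; exact sign-flip permutation test p = 0.125). The value of replicate 3 came from the pseudocount alone, its sign being set by the lengths of the domains, and this p depends on it. The mean was -1.31 without replicate 3 (n = 3; exact sign-flip permutation test p = 0.25) and -0.69 without replicate 1. Exon 14 had the most events (14) and exon 2 the highest density (12 events, 203 per kb), 10 of these 12 in replicate 2. The SBD coding sequence had a larger share of positions near GANGA than the NBD in all 3 genes, 34.7% against 15.4% in HSPA8, 40.0% against 28.8% in HSPA5 and 27.2% against 8.31% in HSPA9.

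**Figure D5:**
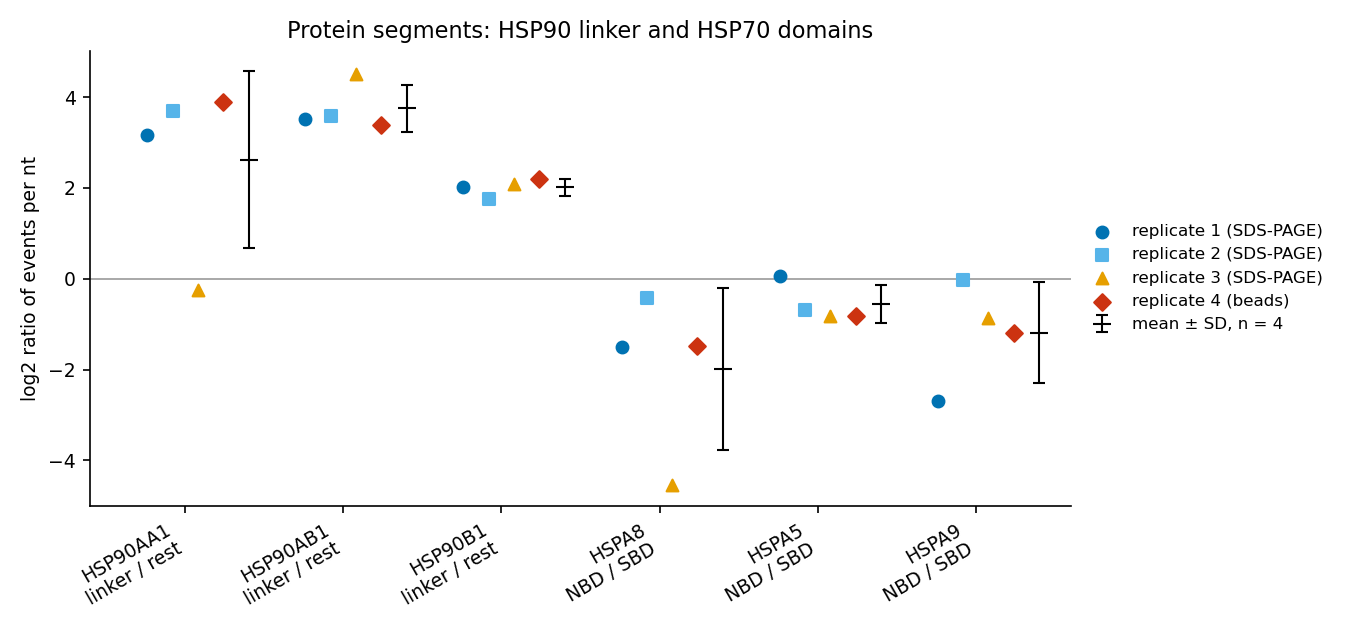
Log2 ratio of event density between protein segments, 1 point per library, with mean ± SD (n = 4): charged linker over other coding sequence in the HSP90 genes, NBD over SBD in the HSP70 genes. The linker ratio is above 0 in 11 of 12 values, the exception being HSP90AA1 in replicate 3 at -0.25. The HSPA9 value of replicate 3 rests on the pseudocount alone.

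The HSP110 and HSP60 transcripts had few events and no single dense exon. HSPA4 had 124 exonic events, with 14 each in exons 12 and 15, and exon 15 was the densest (111 per kb; 4, 4, 2 and 4 events in replicates 1 to 4). Its 4 clusters held 12 to 15 cDNAs each over 104 to 159 nt. All 4 had a position near GANGA, which says little at such lengths, and no background share was computed. HSPH1 had 50 exonic events, 10 of them in the last exon, and its densest exon 17 had 5 events (30.9 per kb). HSPD1, the mitochondrial HSP60, had 74 exonic events (12, 40, 0 and 22), with 14 in exon 3 and the highest density in exon 5 (8 events, 83.3 per kb). The depth does not allow these exons to be ranked.

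Only reads that map to 1 place in the genome were kept by the authors, and these genes have many processed pseudogenes. The 31 nt downstream of an exonic position occurred once in the genome for 49.8% of HSP90AA1 positions, 52.7% for HSP90AB1, 74.0% for HSP90B1, 47.1% for HSPA8, 75.0% for HSPA5, 82.5% for HSPA9, 98.1% for HSPA4, 98.4% for HSPH1 and 31.4% for HSPD1. How far this lowers their counts was not tested. In the linkers the share was 54.3%, 53.9% and 84.8%. The 50 annotated pseudogenes of the 9 genes held 106 events in all, and 1 of them, HSP90AA2P, had 10 or more (25 events: 4, 18, 1 and 2).

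Of 44 other chaperone and co-chaperone genes, 1 had 200 or more events and 19 had a pooled cluster. Among all protein-coding genes, 3.51% had 200 or more events and 11.3% had a pooled cluster. The median of the 44 genes was 76 events. Their highest density was 74.9 pooled exonic events per kb, below each of the 3 HSP90 genes. The 5 with the most events were CANX, the calnexin of the endoplasmic reticulum (68, 158, 11 and 56 events in replicates 1 to 4), TRAP1, the mitochondrial HSP90 (52, 94, 20 and 30), CCT3, a subunit of the cytosolic chaperonin (29, 84, 14 and 38), CDC37, which brings kinases to HSP90 (37, 71, 12 and 41), and STIP1, which joins HSP70 to HSP90 (35, 79, 3 and 37). TRAP1 had 30.6 pooled exonic events per kb, against 181 to 311 in the other 3 HSP90 genes.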

How the data were processed

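Crosslinking events were taken from iiCLIP of PR100-FLAG in 4 HEK293T libraries of 1 group. The authors demultiplexed 100-nt reads, collapsed duplicates by random barcode, mapped them to GRCh38 (Gencode 27) with STAR (named in the submitters' processing notes, version not given in the sources used here) allowing 2 mismatches, kept uniquely mapping reads and took the preceding nucleotide. The deposited values are counts of unique cDNAs at each stranded position, without normalisation, and the deposited clusters carry summed cDNA counts of positions that iCount called at a false discovery rate below 0.05. The pooled list was checked to be the sum of the 4 libraries (784115 positions). The deposited files hold 0 columns of other samples.

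Positions were placed on GRCh38 with GENCODE 44, later than the authors' annotation, on the gene strand, and on the Ensembl canonical transcript for exons, coding sequence and protein segments. Density ratios were log2 ratios of events per nt with a pseudocount of 0.5 event per region and library. Single genes were tested with an exact two-sided sign-flip permutation test over the libraries, whereas sums over genes were given as mean and SD with no test. Library totals were 334057, 604816, 125694 and 179636 events in replicates 1 to 4. The ratio was tested on simulated data. Each member gene is named, with its exon of most events and its densest exon. Of the other chaperones, those with 200 or more events or, failing 5, the 5 with the most are named, as are snoRNA genes and pseudogenes with 10 or more. The members, lists and rules were chosen with earlier results of these data known. Alternatives were other libraries, thresholds, motif ranges, exon sets and uniquely occurring 31-mers. Python 3.11.15, numpy 2.4.6, scipy 1.17.1, Biopython 1.88, pysam 0.24.0 and numba 0.67.0 were used. Some sequence of HSP90AB1 is not reported here.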

Additional observations from a re-analysis of the deposited data

Results flagged for a closer look

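In 47 sets of 4 library values, the highest or lowest library stood apart from the other 3 in 3 sets by its gap to the nearest library as a share of the whole range (Dixon's criterion), and chance gives about 1 in 20 such sets. HSP90AA1 had 2154 CPM in replicate 4, against 493 to 751 in the other libraries (gap over range 0.845). The log2 ratio of exon to intron density of HSP90B1 was 8.98 in replicate 3, against 5.56 to 6.03, with 47 exonic and 0 intronic events there, so the value depends on the pseudocount. The log2 ratio of NBD to SBD density of HSPA5 was 0.057 in replicate 1, against -0.69 to -0.81 in the others, from 15 and 8 events. The cause of these differences was not tested.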

How the results depend on the processing

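Of 121 alternative values for 13 results, 106 stayed within the limits set for an unchanged result, 15 moved and 0 reversed. These limits differed between results. For the linker and the NBD to SBD ratios, any value that kept its sign counted as unchanged, whatever its size. The HSP90B1 linker ratio of 1.14 with at least 16 charged residues per window, against 2.02 as reported, was such a value. The exonic share and the counts of genes could not count as reversed. The exonic share became 87.1% without events inside other genes on the strand and 85.1% with the exons of all transcripts, and the exon to intron log2 ratio 4.98 and 3.31 under the same settings and 4.42 as the median over genes. As the median over genes, the coding to 3′ UTR log2 ratio was 2.43 and the GANGA log2 ratio 1.5. In coding sequence alone the GANGA log2 ratio was 2.01, without the charged linkers 1.59 and without the HSP90 genes 1.72. At 100 events, 8 members passed the minimum. Clusters called in replicates 1, 2, 3 and 4 alone lay in 5, 5, 4 and 5 members. The shares of all protein-coding genes under these settings were not computed, so these counts have no background.

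Leaving out 1 library changed no direction. The log2 ratio became 3.58 without replicate 3 for the HSP90AA1 linker and -1.14 for HSPA8 NBD to SBD, and -0.69 without replicate 1 for HSPA9 NBD to SBD. Counting each position once per library gave -1.29 for HSPA8, and 31-mer unique positions gave -1.85 for HSPA9. No paired analysis was possible because all 4 libraries belong to 1 group. Depth limits HSPA8, HSPA9, HSPA4, HSPH1 and HSPD1, which had 7, 4, 7, 7 and 0 exonic events in replicate 3.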
